A study of Mus musculus with 6 samples.

Results

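Mitochondrial ribosomal protein genes were taken as the protein-coding genes of the deposited count table whose symbol begins with Mrpl or Mrps followed by a number. There were 78 such genes among 27098 in the table, 49 named Mrpl and 29 named Mrps. Their levels were compared in ovaries of mice 3 days after birth that had been kept for 2 h in DMEM/F12 medium with antibiotics, either alone (control, 3 libraries) or with 2% platelet-rich plasma (PRP, 3 libraries). PRP is a plasma fraction rich in platelets and their growth factors. The series text calls it human PRP, activated by thrombin; a control of thrombin alone or of ordinary plasma is not named, nor are strain and genotype. The comparison asked which ovarian transcripts respond to PRP. The libraries were made from ovary tissue, so fewer cells of a type and less RNA per cell cannot be told apart.

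Mitochondria hold a small genome of their own and translate its messenger RNAs on a ribosome that descends from the bacterial one. The ribosomal RNAs of this particle are encoded in the mitochondrion, whereas all of its proteins are encoded in the nucleus, made in the cytosol and imported. Some of these proteins have a bacterial counterpart, and others exist only in mitochondrial ribosomes. The products of the particle are core subunits of the respiratory chain and the ATP synthase, and the oocyte supplies the mitochondria of the next generation.

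By known roles the 78 genes comprised 30 large-subunit proteins with a bacterial counterpart, 21 large-subunit proteins specific to mitochondria, 16 small-subunit proteins with a bacterial counterpart and 10 small-subunit proteins specific to mitochondria. The remaining gene, Mrps36, carries a ribosomal name but encodes an adaptor of the 2-oxoglutarate dehydrogenase complex. Mrps30 and Mrps18a are named after the small subunit but sit in the large one, and were placed there. The table's own descriptions name a mitochondrial ribosomal protein for 77 of the 78, and that of Mrps7 does so with a misspelling.

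Promoter windows of 300 bases (250 before and 50 after the transcription start; RefSeq, GRCm38.p6) were matched for 69 of the 78 genes, which gave 75 windows. They were searched on both strands for the letters of sites known from nuclear genes of mitochondrial proteins: ACTTCCGG for ETS factors such as GABPA, AAGATGGCG for YY1, and the NRF1 palindrome, whose letters are the capitals in the lines of Mrpl9, Mrpl32 and Mrpl39. The ETS letters stood in 12 windows (16.0%, against 6.52% of the 17354 windows of all tested genes and 3.89% of all 32851 windows). For the YY1 letters the count was 8 (10.7%, against 2.32% and 1.40%), and for the NRF1 letters 3 (4.0%, against 1.70% and 0.971%). The stretches of 9 such matches are shown because the members' windows held these letters in a larger share than those of all tested genes, with the matched letters in capitals and 10 flanking bases on each side, 5′ to 3′ on the gene's strand.
Mrpl9, NRF1, chr3:94443298-94443327, plus strand: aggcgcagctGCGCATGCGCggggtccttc
Mrpl32, NRF1, chr13:14613105-14613134, minus strand: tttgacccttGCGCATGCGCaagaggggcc
Mrpl39, NRF1, chr16:84735350-84735379, minus strand: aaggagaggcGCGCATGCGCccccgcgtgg
Mrpl48, ETS, chr7:100583148-100583175, minus strand: ggttttaaaaACTTCCGGaaccaagatg
Mrpl51, ETS, chr6:125192100-125192127, plus strand: aggggctaaaCCGGAAGTatttgactgg
Mrpl3, ETS, chr9:105053239-105053266, plus strand: gagaaacggaCCGGAAGTggcccggctg
Mrps22, ETS, chr9:98601673-98601700, minus strand: acctctcgagCCGGAAGTtgctctatcg
Mrps18a, YY1, chr17:46111005-46111033, plus strand: ggtgcgttccAAGATGGCGgccctcaggg
Mrps27, YY1, chr13:99344790-99344818, plus strand: ggtgcgctccAAGATGGCGgctcccatgg

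The ETS match of Mrps22 began 11 bases before the start site of its window. For Mrpl48 the match began 35 bases before the start of 1 of its 4 windows, an internal start within the span of the gene, and the Mrpl9 match likewise lies inside the gene's span, before an internal start. In Mrps18a and Mrps27 the YY1 letters began 11 and 14 bases after the start, and Mrps27 also holds an ETS match 49 bases before the same start. Of the stretches shown, all but those of Mrpl48 and Mrps22 overlap an annotated exon of some gene. The YY1 letters contain ATG, and whether such a match is a start codon was not tested. A match describes the letters in the window and says nothing of binding. The ETS, YY1 and NRF1 letters each contain CG. The median ratio of observed to expected CG pairs was 0.820 in the members' windows. It was 0.693 for all tested genes and 0.384 for all windows. The part of this in the shares of matches was not tested. The TATAAA letters stood in 6.67% of the members' windows and in 8.36% of those of all tested genes. In 28 of the 75 windows (37.3%) another gene started on the opposite strand within 1000 bases upstream, against 15.8% for all tested genes. Such head-to-head partners included Mrpl46 and Mrps11, which start 42 bases apart, Mrps12 and the mitochondrial seryl-tRNA synthetase gene Sars2, 147 bases apart, and Mrpl43 and the mitochondrial DNA helicase gene Twnk, 116 bases apart.

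All 78 genes passed the filter on low counts, and their mean levels ran from percentile 42.5 to 78.9 of the tested genes. Library counts ran from 463 to 3000 per gene. Mean levels over the 6 libraries ran from 13.3 CPM (counts scaled to a common library size with TMM factors) for Mrpl53 to 78.2 CPM for Mrpl24, a ratio of 5.89, around a median of 29.8 CPM. The median over all 17475 tested genes was 20.7 CPM, and 61 of the 78 lay above it. Per kilobase of transcript (median of the gene's coding transcripts in GENCODE M21), levels ran from 4.40 CPM per kb for Mrps25 to 82.6 CPM per kb for Mrpl30, with a median of 25.8. These per-length levels depend on the transcript chosen. With the shortest coding transcript, Mrps17 was the highest at 184.1 CPM per kb. The length of Mrps25 stays at 6073 bases by either choice and other values can only rise, so it had to remain the lowest at 4.40.

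No mitochondrial ribosomal protein gene passed an adjusted p of 0.05 in edgeR's quasi-likelihood test, where 0.0% of all tested genes did. The values nevertheless leaned to one side: 62 of the 78 (79.5%) had a log2 fold change (PRP minus control) above 0, against 50.4% of all tested genes. Their median log2 fold change was 0.074, a level 5.24% higher in PRP, against 0.001 over all tested genes. The range ran from -0.12 for Mrps5 to 0.20 for Mrps16, and the SD of the 78 values was 0.072 against 0.314 for all genes. All genes include many of lower level than any member, whose fold changes scatter more, and the SDs were not compared at like level. The smallest adjusted p of a member was 1.0, and 1 member, Mrpl54, had an unadjusted p under 0.05 (1.28%, against 3.19% of all genes, or 1.25% counting only higher ones).

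When replicate number entered as a block, 21 genes of the table passed (0.12%), none of them a member, and the members' smallest adjusted p was 0.344. In this blocked edgeR fit 4 members had an unadjusted p under 0.05 (5.13%), namely Mrpl54, Mrps7, Mrpl10 and Mrpl48, all higher in PRP, against 11.2% of all genes and 5.31% counting only higher ones. The median was 0.071 and 62 members again lay above 0, where 50.8% of all genes did. The 95% intervals were taken gene by gene and reflect only the scatter of these libraries, which could be technical. In the unpaired fit 75 of the 78 intervals lay within 0.5 of 0 on the log2 scale (56.1% of all genes). The exceptions were Mrps10 (-0.37 to 0.65), Mrps16 (-0.16 to 0.57) and Mrpl47 (-0.22 to 0.51). In the blocked fit, whose pairing was chosen from the same data, all 78 did (63.8%). The lowest member stood at percentile 42.5 of the tested genes by mean level, so all genes include many of lower level. Interval width depends on level, and these shares were not compared at like level.

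**Figure D1:**
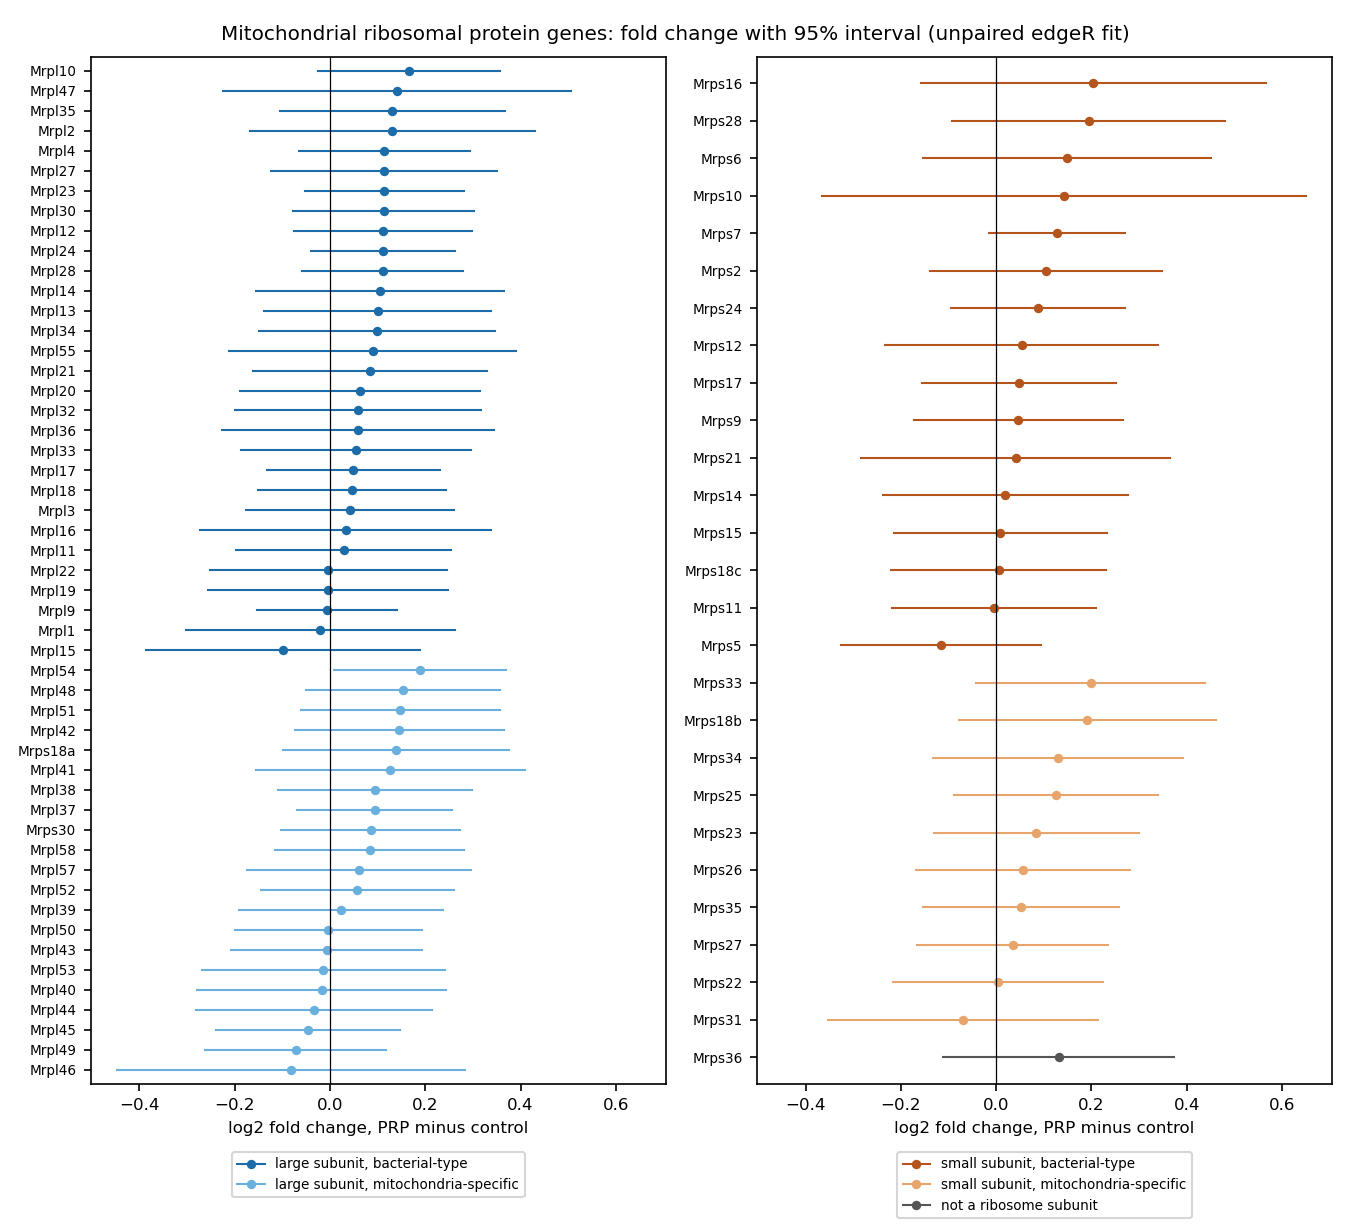
Log2 fold change (PRP minus control, x axis) of each of the 78 genes with its 95% interval from the unpaired edgeR fit, coloured by role, with large-subunit genes on the left and small-subunit genes and Mrps36 on the right. Points lie above 0 for 62 of 78 genes, and the interval of Mrpl54 alone excludes 0.

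The groups overlapped when the family was taken as a whole. The members together took 0.247%, 0.261% and 0.232% of the counts in controls 1, 2 and 3, and 0.258%, 0.269% and 0.250% in PRP 1, 2 and 3. The means were 0.247% ± 0.015 in control and 0.259% ± 0.009 in PRP (SD, n = 3). Control 2 thus stood above PRP 1 and PRP 3, and control 3 was the lowest. Control 3 held the lowest of the 6 levels in 38 of the 78 genes, and PRP 2 the highest in 32. Median deviations from each gene's mean over 6 libraries were -0.032, 0.035 and -0.104 on the log2 scale in controls 1 to 3 and 0.023, 0.079 and 0.004 in PRP 1 to 3.

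**Figure D2:**
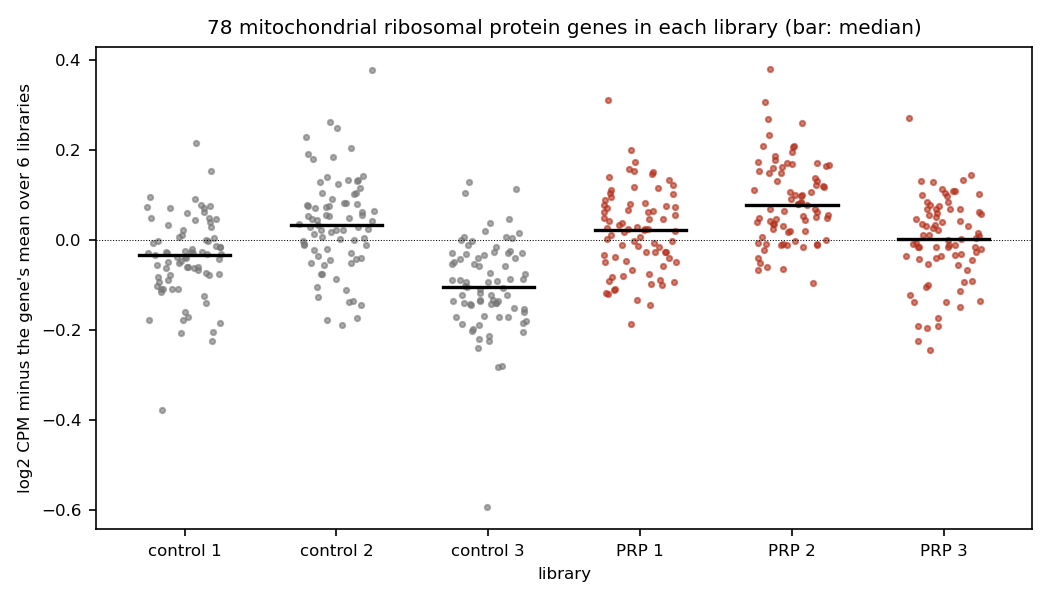
Log2 CPM of each of the 78 genes minus its own mean over the 6 libraries (y axis), by library (x axis), with a bar at the median. Control 3 has the lowest median (-0.104) and PRP 2 the highest (0.079), while control 2 (0.035) lies above PRP 1 and PRP 3; the lowest point of control 3 is Mrps10.

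Each of the 3 same-number pairs leaned the same way. The median log2 difference of the members was 0.050 in pair 1, 0.042 in pair 2 and 0.104 in pair 3, with 56, 48 and 62 of the 78 genes higher in PRP. In 28 members (35.9%) PRP was higher in all 3 pairs, against 16.8% of all tested genes, and in 2 members (2.56%), Mrps5 and Mrpl15, it was lower in all 3, against 16.3%. Without PRP 2 the median fell from 0.074 to 0.035 and 53 members lay above 0. Without control 3 it was 0.054, also with 53 above 0.

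Transcript length and GC content moved with the fold changes of this comparison. Over 15339 tested genes with a GENCODE transcript, Spearman's rho of the log2 fold change was -0.212 with length and 0.256 with GC content, given as a description across genes of the same libraries. The members are short, with a median of 1052 bases against 2197 for all tested genes, and have a like GC content of 50.1% against 50.5%. The 36 members under 1000 bases had a median log2 fold change of 0.099 and the 42 longer ones 0.046, against 0.042 for all 2646 tested genes under 1000 bases. After correction for GC content and length the members' median was 0.042, a level 2.96% higher in PRP, with 63 above 0 against 49.9% of all genes. In that fit 0 members had an unadjusted p under 0.05, against 1.91% of all genes (0.864% counting only higher ones), and 75 intervals lay within 0.5 of 0, against 57.0%. With the block added, 3 members did, namely Mrpl51, Mrps25 and Mrpl35, all higher (3.85%, against 8.8% of all genes and 4.48% counting only higher ones), and all 78 intervals lay within 0.5 of 0, against 64.3%. The pair medians were then 0.022, 0.028 and 0.093. Among the 22 members with an ETS, YY1 or NRF1 match the uncorrected median was 0.057, and among the 47 matched members without one 0.084.

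**Figure D3:**
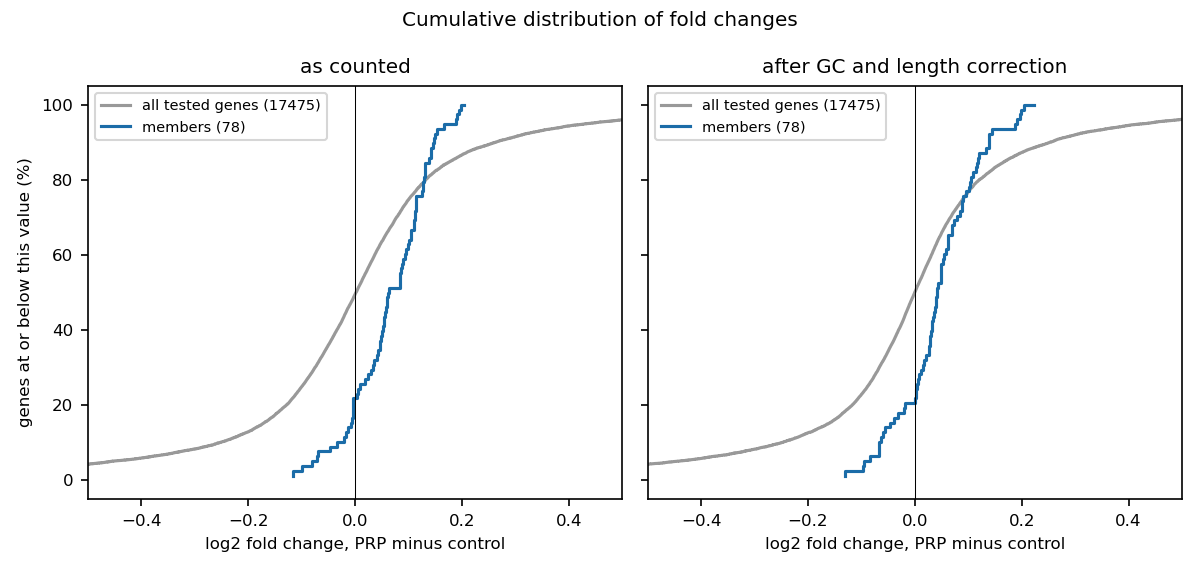
Cumulative share of genes (y axis, percent) by log2 fold change (PRP minus control, x axis) for all 17475 tested genes and the 78 members, as counted (left) and after correction for GC content and transcript length (right). The members' median moves from 0.074 to 0.042, and their curve is steeper than that of all genes in both panels. All genes include many of lower level than any member.

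In 10 of the 78 genes (12.8%) all 3 PRP libraries lay above all 3 controls, against 4.34% of all tested genes, and in 0 genes below them, against 4.87%. The 10 were Mrpl54, Mrps7, Mrpl10, Mrps33, Mrpl24, Mrpl23, Mrpl28, Mrpl4, Mrps25 and Mrpl27. After the correction for GC content and length the counts were 7 above (3.59% of all genes) and 1 below (3.86%). None of the 10 passed the adjusted test, and those within the naming rule are described below by role.

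Large-subunit proteins with a bacterial counterpart had a median log2 fold change of 0.087, with 25 of 30 above 0, and of 0.049 after correction for GC content and length. Mrpl10 encodes the protein that anchors the flexible stalk, which recruits translation factors (Entrez 107732, chromosome 11, 97041582 to 97049213). Its levels were 33.0, 32.1 and 35.1 CPM in controls 1 to 3 and 39.2, 37.0 and 36.2 CPM in PRP 1 to 3. The groups did not overlap, and the log2 fold change was 0.17 ± 0.08 (SE), which did not pass. Mrpl12, whose protein forms the mobile arm of that stalk, measured 39.0, 44.4 and 40.8 CPM in control and 46.2, 42.8 and 45.1 CPM in PRP. Here control 2 stood above PRP 2, and the log2 fold change was 0.11 ± 0.08 (SE), or 0.049 after the correction. Mrpl11, at the base of the stalk, had a log2 fold change of 0.03 ± 0.10 (SE). Differences among the 3 stalk genes were not tested.

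Mrpl24 and Mrpl23 encode ribosomal RNA-binding proteins. Mrpl24 was the most abundant member by CPM, at 78.5, 76.9 and 70.2 CPM in control and 82.4, 82.5 and 78.7 CPM in PRP (log2 fold change 0.11 ± 0.07 SE). PRP 3 lay only just above control 1, so the gap between the groups was small against the spread within either. The span of Mrpl24 overlaps Rrnad1. Mrpl23 measured 39.1, 39.7 and 38.8 CPM in control and 42.0, 42.0 and 43.2 CPM in PRP (0.11 ± 0.07 SE, or 0.054 after the correction). Its controls spanned less than 1 CPM, and it is uncertain because a near-identical pseudogene, Mrpl23-ps1, could share its reads. Mrpl3, a core protein near the peptidyl transferase centre, had means of 51.7 ± 6.1 CPM without and 53.3 ± 2.6 CPM with PRP (SD, n = 3), a difference within the spread.

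Large-subunit proteins specific to mitochondria had a median of 0.062, with 13 of 21 above 0, and of 0.039 after the correction. Mrpl54 (Entrez 66047, chromosome 10, 81264722 to 81266926) had the smallest p-value of the family. It measured 35.2, 32.8 and 33.7 CPM in control and 38.1, 38.7 and 39.1 CPM in PRP. All PRP values exceeded all controls, by 1.14-fold in the fit, with a log2 fold change of 0.19 ± 0.08 (SE; edgeR adjusted p = 1.0). After correction for GC content and length its log2 fold change was 0.11. Mrpl48 measured 42.2, 35.6 and 36.6 CPM in control and 43.7, 41.7 and 41.9 CPM in PRP (0.15 ± 0.09 SE). Control 1 lay among the PRP values, whereas within pairs PRP was higher each time. Mrpl51 measured 30.0, 32.3 and 30.0 CPM in control and 34.2, 36.5 and 31.5 CPM in PRP (0.15 ± 0.09 SE), with control 2 above PRP 3. Both Mrpl48 and Mrpl51 have a pseudogene of near-identical sequence.

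The other large-subunit genes named for their roles lay closer to 0. Mrpl58 encodes a peptidyl-tRNA hydrolase that frees stalled mitochondrial ribosomes, with means of 32.2 ± 2.1 CPM without and 34.1 ± 0.7 CPM with PRP (SD, n = 3). Mrpl44, whose protein has a ribonuclease III-like fold, averaged 32.0 ± 4.0 and 31.3 ± 1.8 CPM. For Mrpl41, also known as a BCL2-binding protein, the means were 16.3 ± 0.6 and 17.8 ± 2.3 CPM, and PRP 2, at 20.5 CPM, stood above the other PRP libraries, at 16.5 CPM each. Mrps30 averaged 37.2 ± 1.4 and 39.5 ± 2.2 CPM, and the rarest member, Mrpl53, 13.4 ± 0.1 and 13.2 ± 0.3 CPM.

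Small-subunit proteins with a bacterial counterpart had a median of 0.051, with 14 of 16 above 0, and of 0.031 after the correction. Their median was -0.017 in pair 2 and 0.118 in pair 3. Mrps7 encodes a protein of the head of the subunit that contacts messenger and transfer RNA (Entrez 50529, chromosome 11, 115604140 to 115608036). It measured 70.2, 73.5 and 68.6 CPM in control and 76.4, 75.8 and 79.8 CPM in PRP. The groups did not overlap, with a log2 fold change of 0.13 ± 0.06 (SE; edgeR adjusted p = 1.0), but the span of Mrps7 overlaps Gga3 and Mif4gd. Mrps28 measured 15.8, 17.3 and 17.3 CPM in control and 18.2, 22.2 and 17.3 CPM in PRP (0.19 ± 0.13 SE). PRP 2 was the highest, and PRP 3 lay among the controls. Mrps16, whose human counterpart is mutated in a mitochondrial disease, measured 13.9, 21.1 and 15.8 CPM in control and 20.3, 20.4 and 17.8 CPM in PRP. Its log2 fold change of 0.20 ± 0.16 (SE) was the highest of the family, yet control 2 exceeded every PRP library. It was 0.077 without control 1 and 0.397 without control 2, and the pseudogenes Gm12244 and Gm9173 could share its reads. Mrps12, a protein of the decoding centre, had a value of 0.05 ± 0.13 (SE), which turned to -0.02 after correction for GC content and length.

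Small-subunit proteins specific to mitochondria had a median of 0.070, with 9 of 10 above 0. Mrps33 (Entrez 14548, chromosome 6, 39801804 to 39810936) measured 16.4, 15.7 and 15.2 CPM in control and 17.8, 18.9 and 17.6 CPM in PRP, without overlap. The log2 fold change was 0.20 ± 0.11 (SE; edgeR adjusted p = 1.0). Mrps25 measured 25.7, 27.3 and 23.7 CPM in control and 27.9, 27.6 and 28.2 CPM in PRP (0.13 ± 0.10 SE), with PRP 2 just above control 2. Both genes have a pseudogene of near-identical sequence, and Mrps25 overlaps Nr2c2. Mrps22, whose human counterpart has been linked to primary ovarian insufficiency, had means of 41.4 ± 3.9 CPM without and 41.5 ± 3.0 CPM with PRP (SD, n = 3). Its 95% interval ran from -0.22 to 0.22 on the log2 scale.

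The 3 Mrps18 genes encode related proteins placed at different sites of the particle. Mrps18b, in the small subunit, measured 18.1, 19.9 and 15.7 CPM in control and 20.6, 21.2 and 19.5 CPM in PRP (log2 fold change 0.19 ± 0.12 SE). PRP 3 fell just under control 2, so the groups overlapped. The span of Mrps18b overlaps Gm16279, and a near-identical pseudogene, Gm13552, could share its reads. Mrps18a, in the large subunit, had a value of 0.14 ± 0.10 (SE), and Mrps18c, the small-subunit form with a bacterial counterpart, 0.0053 ± 0.10 (SE). Mrps36, the member outside the ribosome, measured 23.9, 21.3 and 21.9 CPM in control and 26.9, 24.0 and 22.7 CPM in PRP (0.13 ± 0.11 SE), and 4 pseudogenes resemble it.

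Several of these values moved, down or up, when 1 library was left out. Without PRP 2, Mrps28 was at 0.079, Mrpl51 at 0.097 and Mrpl41 at 0.014 on the log2 scale. Without PRP 1, Mrps36 was at 0.061 and Mrps30 at 0.039. Leaving out control 3 gave 0.064 for Mrpl24, 0.106 for Mrps18b, 0.074 for Mrps25 and 0.036 for Mrpl58. Leaving out control 1 gave 0.231 for Mrpl48, 0.068 for Mrpl12 and 0.072 for Mrps18a, and Mrpl58 was at 0.131 without control 2. Correction for GC content and length lowered Mrps18a to 0.071 and Mrpl41 to 0.078, and raised Mrps25 to 0.200 and Mrps30 to 0.139. The genes nearest to 0 moved more in proportion, with Mrpl44 at -0.068, Mrpl53 at -0.067 and Mrpl11 at 0.0002 after it.

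**Figure D4:**
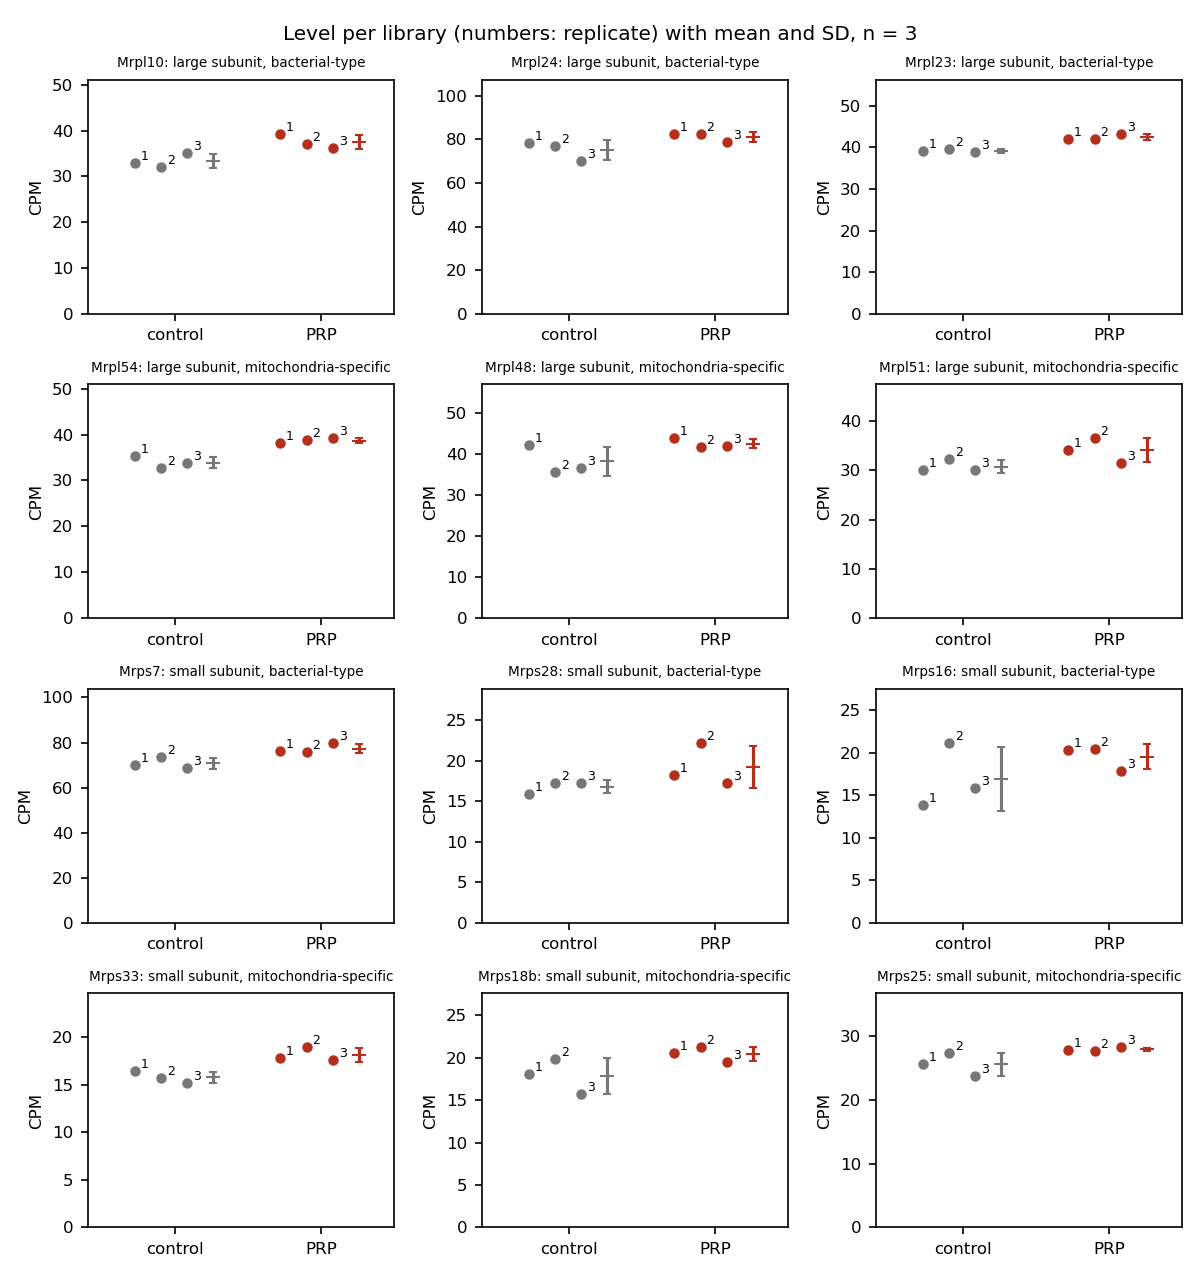
CPM (y axis, from 0) of the 3 members with the smallest p-values in each role group, by group (x axis), with 1 point per library numbered by replicate and the mean with its SD beside the points (n = 3). PRP lies wholly above control in Mrpl10, Mrpl24, Mrpl23, Mrpl54, Mrps7, Mrps33 and Mrps25, and the groups overlap in the other 5 genes.

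Other genes of mitochondrial translation did not pass in the unpaired fit either. Among 5 ribosomal subunits named otherwise, 3 lay above 0 with a median of 0.031. Aurkaip1, a small-subunit protein, measured 42.9, 41.4 and 36.6 CPM in control and 45.7, 48.3 and 45.9 CPM in PRP (0.21 ± 0.09 SE, or 0.14 after the correction; edgeR adjusted p = 1.0). Its groups did not overlap. Chchd1, another such subunit, had a value of 0.09 ± 0.11 (SE). Of 16 translation factors 7 lay above 0 (median -0.025), with the initiation factor Mtif3 at 0.17 ± 0.12 and the membrane insertase Oxa1l at 0.11 ± 0.08 (SE).

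Assembly factors of the mitochondrial ribosome, of which 10 of 22 lay above 0, had a median of -0.007. Rbfa, which helps to mature the small-subunit RNA, measured 24.2, 26.1 and 25.4 CPM in control and 32.0, 31.1 and 28.6 CPM in PRP. This was a log2 fold change of 0.28 ± 0.09 (SE) without overlap, though it did not pass (adjusted p = 1.0 without and 0.217 with the block). Ybey, an RNA endonuclease, had a value of -0.38 ± 0.24 (SE) at about 3 CPM. Mitochondrial aminoacyl-tRNA synthetases and amidotransferase subunits had a median of 0.015, with 11 of 20 above 0, which turned to -0.015 after the correction for GC content and length. In that list Qrsl1 stood at 0.24 ± 0.13 and Lars2 at -0.20 ± 0.12 (SE).

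Genes of mitochondrial transcription and replication had a median of -0.001, with 4 of 9 above 0. Tfb2m, a transcription factor of the mitochondrial genome, stood at -0.15 ± 0.11 and Tfam, which packages that genome, at 0.07 ± 0.06 (SE). The 9 nuclear factors known to act on genes of mitochondrial proteins had a median of -0.122, with 2 above 0. Yy1 measured 176.5, 157.5 and 167.2 CPM in control and 155.1, 146.6 and 152.0 CPM in PRP (-0.14 ± 0.06 SE; edgeR adjusted p = 1.0). Its groups did not overlap. Gabpa stood at -0.11 ± 0.07 (SE), or -0.041 after the correction.

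The 13 mitochondrially encoded messenger RNAs, the templates of these ribosomes, had a median of -0.041 with 5 above 0. This direction did not hold throughout: after the correction the median was 0.0036 with 7 above 0, and in pair 2 it was 0.102 with 10 above 0. Their summed share of the counts was 1.87% ± 0.05 without and 1.87% ± 0.16 with PRP (SD, n = 3). ATP6, an ATP synthase subunit, was low at 5.63, 5.43 and 5.96 CPM in control and 13.0, 8.31 and 12.1 CPM in PRP. It was the 1 gene of these 7 lists that passed with the block (log2 fold change 0.95, adjusted p = 0.033), and it did not pass without it (0.97 ± 0.20 SE, adjusted p = 1.0). With the block in limma-voom, or in edgeR without robust estimation, no gene passed. The place of ATP6 in the crowded mitochondrial genome makes the assignment of its reads uncertain. Other rows of the list were also low beside COX1, which had a control mean of 7935 CPM. Control means were 0.56 CPM for ATP8, 0.64 for ND3, 1.40 for ND4L, 19.8 for COX3 and 39.3 for COX2. The list's median and count above 0 weigh such rows equally, whereas the summed share rests on the high rows. COX2, a cytochrome c oxidase subunit, stood at 0.22 ± 0.09 (SE) without passing.

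**Figure D5:**
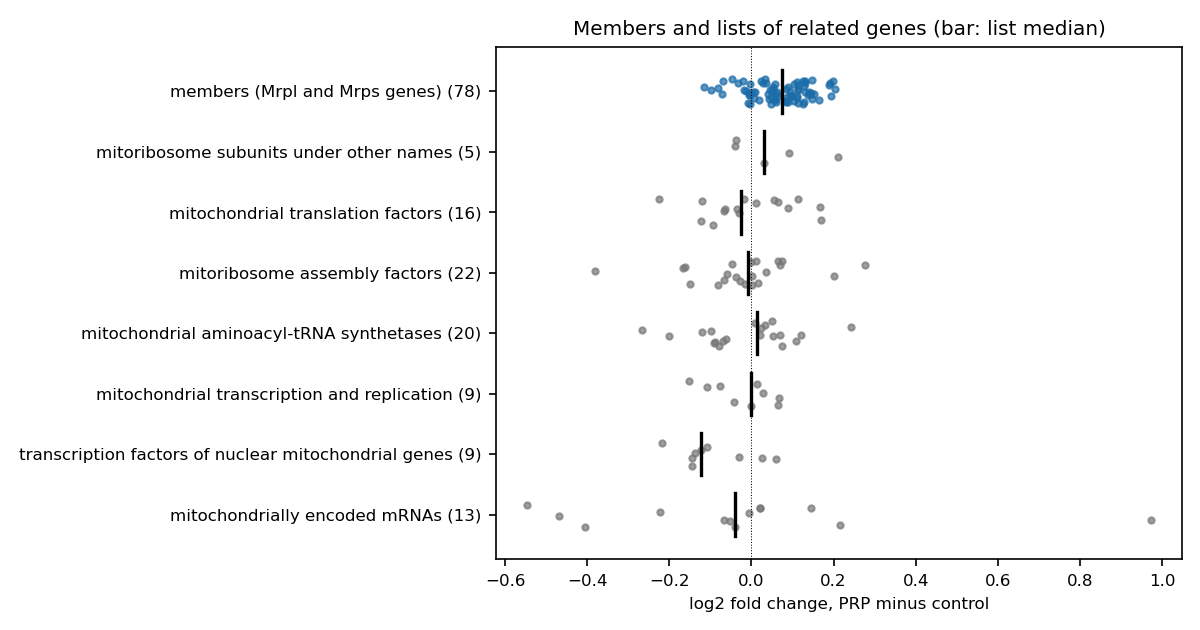
Log2 fold change (PRP minus control, x axis) of each gene in the family and in 7 lists of related mitochondrial genes and their nuclear regulators (y axis, gene numbers in brackets), with a bar at the list's median. The family's median is 0.074, the other medians run from -0.122 to 0.031, and the far right point is ATP6.

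The cytosolic ribosomal protein genes and the nuclear genes of oxidative phosphorylation subunits also lay mostly above 0. Of 84 tested genes of the first family 79 did, with a median of 0.118 on the log2 scale, and of 83 of the second 76 did, with a median of 0.085. Unadjusted p-values under 0.05 in the blocked fit were found for 57 of 84 cytosolic ribosomal protein genes, 18 of 83 oxidative phosphorylation genes and 4 of 78 mitochondrial ribosomal protein genes, where all genes gave 11.2%. These families were measured in the same libraries and have short transcripts, with medians of 697 and 648 bases. After correction for GC content and length the medians were 0.077 and 0.054 against 0.042 for the mitochondrial ribosomal proteins. The difference between the families was not tested.

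Library totals ran from 35568000 to 36568367 counts. The ovarian markers Zp2, Zp3, Gdf9, Ddx4, Foxl2 and Amh were all detected, at a summed 1137 to 1722 CPM in control and 1258 to 2022 CPM in PRP. Their median deviations on the log2 scale were 0.101, -0.366 and -0.007 in controls 1 to 3. In PRP 1 to 3 they were 0.326, -0.258 and 0.183. Control 2 and PRP 2, the lowest in these markers, held the highest shares of the mitochondrial ribosomal protein genes. Whether the 2 are linked was not tested. Zp2 and Zp3, genes of the oocyte's coat, passed with the block (edgeR adjusted p = 0.033 and 0.041) and not without it. With the block in limma-voom, or in edgeR without robust estimation, no gene passed. Erythroid markers summed to 108.2 to 1309 CPM in control, the highest in control 3, and to 109.1 to 225.0 CPM in PRP. Control 3, in which the mitochondrial ribosomal protein genes were lowest, therefore also stood apart in red cell transcripts, and the part of this in the family's values was not tested. Macrophage and leukocyte markers summed to 29.5 to 38.9 CPM in control and 31.0 to 36.6 CPM in PRP, and endothelial markers to 266.1 to 310.1 and 251.5 to 314.1 CPM. Markers of brown fat, a tissue rich in mitochondria, summed to at most 5.18 CPM in any library.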

How the data were processed

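Messenger RNA was sequenced from 6 libraries of mouse ovary. Per the labels' protocols, a ReliaPrep tissue kit gave the RNA and a SMARTER kit the libraries. The deposited table holds the authors' raw counts, 1 row a gene symbol, and these were used unchanged. The submitters' processing notes name GRCm38 and mm10; how reads were aligned and counted, and whether by strand, is not given in the sources used here. Groups and numbers came from the titles. One column spells PRP as PPR with the number 3, and was taken as PRP 3 because each other title has its own column. Nothing in the labels says that replicates came from separate cultures or animals, so each p-value reflects only how these libraries scatter, and that scatter could be technical. Pairs of libraries differed beyond counting noise (chi-square divided by its degrees of freedom 8.41 to 29.5).

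Tests used edgeR 4.0.16 and R 4.3.3 (filterByExpr, TMM, robust quasi-likelihood F test, two-sided, Benjamini-Hochberg over 17475 genes). SEs came from the fold change and its F statistic. The biological coefficient of variation was 18.3%, and 9.64% with the replicate number as a block. Over all tested genes, same-numbered libraries deviated together from their group means (r of 0.240, 0.398 and 0.334), and other pairings gave -0.022 or below. Deviations within a group cancel out, so these values are not independent of each other. Over the members r was 0.221, 0.149 and 0.365 for same numbers and up to 0.058 for others. The numbers were taken as pairs for the blocked fit, a choice made from the same data. Correction for GC content and length used natural splines on log2 CPM (prior count 2) per library, with GENCODE M21 transcripts, as offsets. DESeq2 1.42.0, limma-voom (limma 3.58.1), other scalings and filters, and fits without each library in turn were the alternatives. The procedure was tested on simulated data with a built-in replicate effect and larger changes than any member showed. That test therefore does not bear on changes of the members' size.

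Of the 78 members, 19 have a pseudogene in GENCODE that matches over at least 200 bases at 95% identity or more. None of these copies is a row of the table under that name. The spans of 24 members overlap another gene of the table. For members with such a copy or overlap the counting may have assigned reads to either. Besides those flagged above, they include Mrps28, Mrps18a and Mrpl48, which overlap another gene, and Mrpl41, which has a pseudogene. Named genes were, in each role group, the 3 members with the smallest unpaired p, the most and least abundant member, any that passed, 14 genes fixed for their roles, and in each further list the 2 genes with the smallest p. The members and lists were chosen with earlier results of these data known.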

Additional observations from a re-analysis of the deposited data

How the results depend on the processing

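The count of passing members was 0 in edgeR (1 at an unadjusted p under 0.05), DESeq2 (1) and limma-voom (1), with every other filter and scaling, with each library left out, with the replicate block, and in limma-voom and without robust estimation with the block (the last 2 chosen after seeing the data). The members' median log2 fold change stayed above 0 in all of these, from 0.035 without PRP 2 to 0.107 without control 2. It was 0.042 with GC content and length corrected for, 0.044 with the block besides, and 0.051 over the 40 members with no pseudogene copy and no overlapping gene (chosen after seeing the data). The number of members above 0 ran from 53 to 70.

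Over all genes the count of calls was 0 without the replicate block, 21 with it and 21 with it and the GC and length correction. With the block and a pair left out it ran from 1 to 19, and over all fits with a library or pair left out from 0 to 19. In limma-voom or without robust estimation it was 0 with the block, so ATP6, Zp2 and Zp3 did not pass there. In the robust edgeR fit with the block ATP6 passed, also with the GC and length correction (log2 fold change 1.00), as did Zp2. Zp3 passed there with the block alone (edgeR adjusted p = 0.041, and 0.079 with the correction). No call changed for the other genes named. Values near 0 changed sign: Mrps12 was -0.020 after the GC and length correction and -0.017 with the block besides, and Mrpl11 -0.00088 in the latter. With 1 library left out, log2 fold changes ran from -0.052 to 0.109 for Mrpl3, -0.031 to 0.111 for Mrps12, -0.054 to 0.082 for Mrps22, -0.105 to 0.071 for Mrpl44, -0.199 to 0.018 for Mrpl15, -0.041 to 0.082 for Mrpl11, -0.072 to 0.055 for Mrps18c, -0.070 to 0.273 for Mrps10 and -0.029 to 0.00082 for Mrpl53. With the block and 1 pair left out, they ran from -0.024 to 0.093 for Mrpl3, -0.020 to 0.157 for Mrps12, -0.073 to 0.051 for Mrps22, -0.102 to 0.026 for Mrpl44, -0.115 to -0.071 for Mrpl15, -0.021 to 0.124 for Mrpl11, -0.051 to 0.028 for Mrps18c, 0.054 to 0.277 for Mrps10 and -0.035 to -0.0027 for Mrpl53. Mrpl11 was also below 0 without pair 3 (-0.019). The cause was not tested. SEs of the members ran from 0.063 to 0.220 on the log2 scale at 3 libraries a group, which limits what a single gene can show.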

Other observations

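A few members stood out from the family and were chosen after their values were seen. Mrps10, a small-subunit protein with a bacterial counterpart (Entrez 64657, chromosome 17, 47368887 to 47381418), measured 26.8, 27.4 and 16.0 CPM in controls 1 to 3 and 30.0, 26.4 and 21.1 CPM in PRP 1 to 3. The libraries numbered 3 were the lowest in both groups, and its SE of 0.22 on the log2 scale was the largest of the 78 without the block and 0.10 with it. A pseudogene of near-identical sequence exists for this gene.

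Mrps5 and Mrpl15 were the members with lower values in PRP in all 3 pairs. Mrps5, a protein of the messenger RNA entry site, measured 39.1, 41.3 and 36.7 CPM in control and 34.7, 39.3 and 34.1 CPM in PRP, a log2 fold change of -0.12 ± 0.09 (SE). Mrpl15 measured 42.9, 49.8 and 36.9 CPM in control and 40.4, 45.1 and 35.5 CPM in PRP, or -0.10 ± 0.13 (SE). Neither passed in edgeR (adjusted p = 1.0 for both without the block, 0.593 and 0.661 with it).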
